A study of Mus musculus with 12 samples.

Results

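The genes described here are the IGF2 mRNA-binding protein genes Igf2bp1, Igf2bp2 and Igf2bp3, the let-7 antagonist Lin28b, the architectural chromatin genes Hmga1 and Hmga2, and the neighbouring imprinted genes Igf2 and H19. They were chosen by name as an oncofetal group, with earlier results of these arrays in view, and every array probe carrying one of the names was taken. This gave 8 genes with 19 probes, of 35080 gene names and 55681 probes on the array. Because the measured values had a part in the choice, the levels and changes of these 8 genes are given as a description, with standard errors and no p-value.

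Total RNA from 12 cell samples was read on 1-colour Agilent mouse expression arrays, 1 array per sample, in 4 groups of 3. RAW264.7, a mouse macrophage-like line, carried either the PLKO vector as the control or a short hairpin RNA that silences Abhd5, a co-activator of the triglyceride lipase ATGL. CT-26, a mouse colon carcinoma line, had been primed by the control or by the Abhd5-silenced RAW264.7 cells, and is called control-primed or knockdown-primed below. The labels do not say how the priming was done, whether the CT-26 cells were separated from the macrophages before RNA was taken, or whether the 3 samples of a group were separate cultures, so standard errors and p-values measure the spread between these samples only. Each line is an established cell line.

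The IGF2BP proteins bind mRNAs in the cytoplasm, many of them carrying N6-methyladenosine (m6A), and affect their stability, transport and translation. Igf2bp1 and Igf2bp3 are mainly active in the embryo and in tumours, while Igf2bp2 stays on in many adult tissues. LIN28B blocks the maturation of let-7 microRNAs, and let-7 in turn lowers mRNAs that hold its target sites, among them Hmga2 and the Igf2bp mRNAs. HMGA1 and HMGA2 bend AT-rich DNA and alter chromatin structure. Igf2 encodes a fetal growth factor and H19 a non-coding RNA; they share an imprinted cluster.

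The let-7 seed, bases 2 to 8 of the microRNA, links several of these genes, and it is shown in capitals in the RefSeq mature sequences that follow. Of 11 mouse let-7 and miR-98 5′ sequences in the RefSeq table (GRCm38.p6), 10 share it, and let-7j differs at its last seed base.
mmu-let-7a-5p: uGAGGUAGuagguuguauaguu
mmu-let-7g-5p: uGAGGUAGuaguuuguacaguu
mmu-miR-98-5p: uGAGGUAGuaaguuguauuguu
mmu-let-7j: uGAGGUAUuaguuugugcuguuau
The DNA match of the shared seed, CTACCTC, was looked for in the sense strand of the 60-base probes. It stood in 204 of the 55681 probes (0.366%), and its reverse complement stood in 144 (0.259%). Among the 19 probes of the 8 genes, 1 held it, the brighter of the Hmga2 probes. The stretch of that probe that holds the match is shown because this probe supplies the Hmga2 values, with the match in capitals. It lies on the minus strand of mm9 at chr10:119798747-119798768.
Hmga2 probe, 22 bases: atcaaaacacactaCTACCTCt
The match in this stretch pairs without a break over 10 bases with let-7a. The arrays give mRNA levels here, and let-7 itself is not analysed.

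Levels are log2 processed signals relative to the 75th percentile of the array, so a level of 0 means as bright as that percentile. They compare arrays for the same probe, not different probes. A probe was detected on an array where the scanner software marked it well above background. Detected spots made up 56.5% to 57.8% on RAW264.7 control arrays 1 and 2, which shared slide 1. They made up 69% to 73% on RAW264.7 control array 3 and the 3 knockdown arrays, which shared slide 2. The 6 CT-26 arrays shared slide 3. On these, detected spots made up 68.3% to 77.3% after control priming and 59.2% to 66.9% after knockdown priming, without overlap. Cell line and slide therefore cannot be told apart between the lines, and within RAW264.7 the values inside slide 2 are given beside the pooled ones. Abhd5 itself fell in the RAW264.7 knockdown by 1.32 ± 0.20 on the log2 scale (SE, limma adjusted p = 0.00346), while in CT-26 its difference was 0.07 ± 0.15 (limma adjusted p = 0.776). Of 10 macrophage markers, all 10 were detected on every RAW264.7 array, with a summed linear level of 187 to 250 times the 75th percentile. On CT-26 arrays 7 or 8 of them were detected, with sums of 55.4 to 75.1. The defining markers Adgre1 and Spi1 were detected on 0 of the 6 CT-26 arrays and Laptm5 on 1. Cd68, Csf1r, Ptprc, Lyz2, Itgam, Fcgr1 and Cd14 were detected on all 6. Itgam, the brightest of the 10 in CT-26, had means of 5.60 after control priming and 5.77 after knockdown priming. In RAW264.7 it had means of 6.24 in control and 5.86 in knockdown cells. Of 10 epithelial carcinoma markers, 6 to 9 were detected on CT-26 arrays, with sums of 4.91 to 8.21, and 3 to 9 on RAW264.7 arrays, with sums of 1.49 to 2.72. Krt18 was detected on every array of both lines, with means of 2.43 and 1.78 in the CT-26 groups and -3.30 and -3.77 in the RAW264.7 groups. Krt7 and Cldn7 were also detected on every array, with group means of -1.10 to -0.54 and -0.24 to 0.54. Cdh1, a defining epithelial gene, was detected on no array of either line. Epcam was detected on 1 CT-26 array, and in RAW264.7 on 1 control and 3 knockdown arrays.

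Among the IGF2BP genes, the Abhd5 knockdown in RAW264.7 cells went with much less Igf2bp1 and with more Igf2bp2 and Igf2bp3. None of these 3 genes differed between the CT-26 groups by more than 0.44 on the log2 scale. Igf2bp1 has 1 probe (mm9, chromosome 11, 95824526 to 95824585, minus strand), which read 0.49, 0.67 and 0.87 on the RAW264.7 control arrays and -3.72, -3.80 and -3.62 on the knockdown arrays. The gap between the lowest control and the highest knockdown array was 4.11, and the probe was detected on all 12 arrays. In CT-26 its level was 0.84, 0.68 and 0.63 in control-primed cells and 0.63, 0.91 and 0.94 in knockdown-primed cells, and these groups overlapped. The control RAW264.7 arrays overlapped those of CT-26, with group means of 0.68, 0.72 and 0.83, and of the 4 groups the RAW264.7 knockdown, at -3.71 ± 0.09 (SD, n = 3), stood apart from the other 3. The RAW264.7 change was -4.39 ± 0.18 (SE), which left 4.77% of the control level, a 21-fold difference. Inside slide 2, where RAW264.7 control 3 was set against the knockdown arrays, it was -4.59. The CT-26 change was 0.11 ± 0.16 (95% interval of the fit, -0.25 to 0.47).

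**Figure D1:**
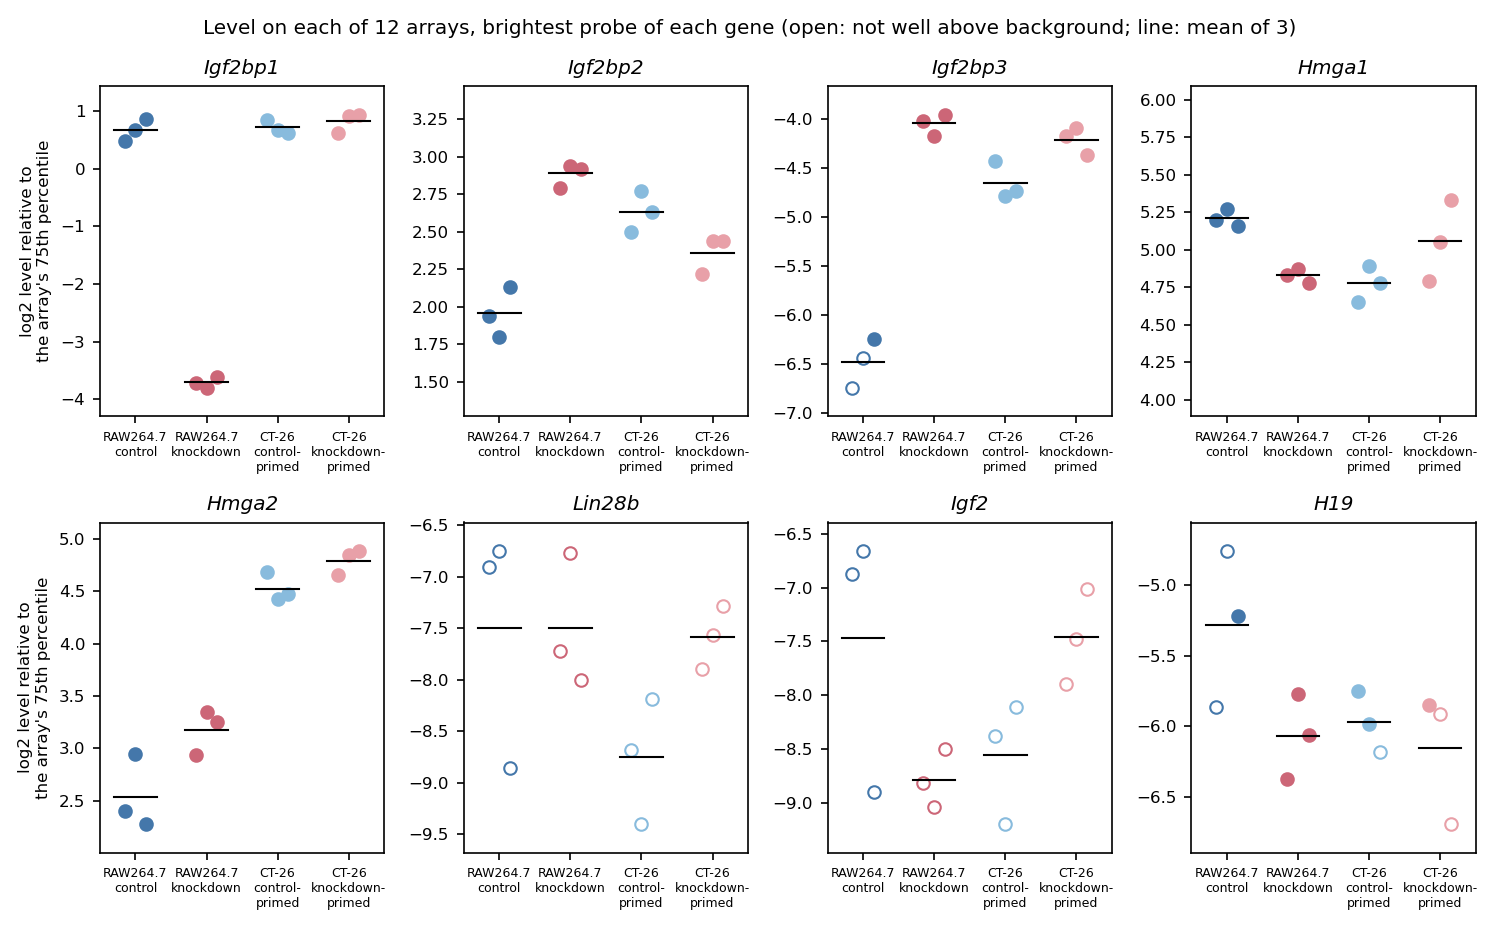
Level of the brightest probe of each of the 8 genes on the 12 arrays, on the y axis as log2 relative to the 75th percentile of the array, with the 4 groups along the x axis, filled points for arrays where the probe was detected, open points where it was not, and a line at the mean of 3 arrays; each panel has its own scale. Igf2bp1 stands between 0.49 and 0.94 in 3 groups and between -3.80 and -3.62 in the RAW264.7 knockdown, while Lin28b and Igf2 have open points only.

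Igf2bp2 has a probe pair on chromosome 16 (mm9, minus strand, 22059582 to 22059641 and 22059260 to 22059319). At the brighter probe the RAW264.7 control arrays read 1.94, 1.80 and 2.13 and the knockdown arrays 2.79, 2.94 and 2.92. The groups were 0.66 apart, a 1.91-fold higher level in the knockdown. The other probe read 1.38, 1.17 and 1.70 in control and 2.58, 2.51 and 2.49 in knockdown cells, which is the same direction. The changes were 0.93 ± 0.18 at the brighter and 1.11 ± 0.20 at the other probe (SE), and inside slide 2 they were 0.76 and 0.82. In CT-26 the brighter probe read 2.50, 2.77 and 2.63 in control-primed and 2.22, 2.44 and 2.44 in knockdown-primed cells, a change of -0.27 ± 0.16 with groups 0.06 apart. The other probe gave -0.02 ± 0.16 with overlapping groups, so the small CT-26 difference stood at 1 of the 2 probes. The RAW264.7 knockdown mean of 2.89 ± 0.08 was above the CT-26 means of 2.63 ± 0.14 and 2.36 ± 0.13 (SD), and the RAW264.7 control mean of 1.96 ± 0.16 was the lowest of the 4.

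Igf2bp3 was a dim gene. Its 1 probe (mm9, chromosome 6, 49035710 to 49035769, minus strand) was detected on 10 arrays; the exceptions were RAW264.7 control arrays 1 and 2. Levels there were -6.74 and -6.44, and -6.25 on control array 3, against -4.02, -4.18 and -3.96 on the knockdown arrays. All knockdown arrays lay above all control arrays by 2.07 or more, and only 1 of 3 control arrays measured the gene above its background. The fitted change was 2.42 ± 0.19 (SE), but control arrays 1 and 2 read below the lowest level marked well above background there, -4.8 and -4.6, so no fold is given, and the gene was tested in RAW264.7 only because its knockdown arrays passed the detection filter. Inside slide 2, where the gene was detected on every array, the change was 2.20 against 1 control array. It was 0.65 when the normexp background correction replaced that of the scanner software. In CT-26 the gene was detected on all 6 arrays, at -4.43, -4.79 and -4.74 in control-primed and -4.18, -4.10 and -4.37 in knockdown-primed cells. These groups were 0.06 apart, with a change of 0.44 ± 0.17. By group mean the order from the lowest was RAW264.7 control, control-primed CT-26, knockdown-primed CT-26 and RAW264.7 knockdown, at -6.48 ± 0.25, -4.66 ± 0.20, -4.22 ± 0.14 and -4.05 ± 0.12 (SD, n = 3), and the last pair overlapped.

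The promoters of Igf2bp2 and Igf2bp3, the 2 genes of the family that were higher in the knockdown macrophages, are shown as the 250 bases before the RefSeq start (GRCm38.p6, minus strand, chr16:22163300-22163549 and chr6:49214955-49215204). Capitals mark the GC box (GGGCGG, or CCGCCC on the other strand) and the E box CACGTG, which reads the same on both strands.
Igf2bp2 promoter: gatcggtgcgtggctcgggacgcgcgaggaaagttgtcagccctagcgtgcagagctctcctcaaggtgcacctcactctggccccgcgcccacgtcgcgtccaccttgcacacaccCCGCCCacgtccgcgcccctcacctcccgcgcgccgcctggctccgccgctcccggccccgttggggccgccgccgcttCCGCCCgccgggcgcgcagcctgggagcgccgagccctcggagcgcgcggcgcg
Igf2bp3 promoter: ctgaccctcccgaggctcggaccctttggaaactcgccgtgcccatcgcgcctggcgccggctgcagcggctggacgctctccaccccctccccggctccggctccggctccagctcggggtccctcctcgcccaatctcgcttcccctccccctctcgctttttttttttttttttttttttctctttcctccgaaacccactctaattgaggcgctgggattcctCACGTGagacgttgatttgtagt
The Igf2bp2 window held 40 CpG dinucleotides and 77.2% G and C, and the Igf2bp3 window 21 and 60.4%, against medians of 6 and 52.4% over 32851 promoter windows of the same length. Igf2bp2 had 2 GC boxes, and 16.7% of all windows had 2 or more. Igf2bp3 had no GC box and 1 E box, which 6.0% of all windows hold. Igf2bp1 had no entry among the promoters read. Hmga1, which was not higher in the knockdown at its brightest probe, held 3 or 4 GC boxes in its windows. The window of Lin28b, which was detected on no array, held 1 E box. These motifs are letters in a sequence, and no binding was measured.

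Hmga1, the first of the HMGA genes, has 3 probes on chromosome 17 and was detected by each on all 12 arrays. Its brightest probe (mm9, 27700543 to 27700602, plus strand) read 5.20, 5.27 and 5.16 in RAW264.7 control and 4.83, 4.87 and 4.78 in knockdown cells. The groups were 0.29 apart and the change was -0.38 ± 0.16 (SE), but quantile normalization gave 0.06. The other Hmga1 probes gave 0.07 ± 0.28 and -0.26 ± 0.23 with overlapping groups. In CT-26 the brightest probe read 4.65, 4.89 and 4.78 in control-primed and 4.79, 5.05 and 5.33 in knockdown-primed cells, with a change of 0.28 ± 0.18 and 0.01 under quantile normalization. The other probes gave 0.30 ± 0.18 and 0.47 ± 0.19, with groups 0.01 and 0.07 apart.

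The brightest Hmga2 probe (mm9, chromosome 10, 119798739 to 119798798, minus strand) is the one with the let-7 match shown above. There the 6 RAW264.7 arrays lay between 2.28 and 3.35 and the 6 CT-26 arrays between 4.42 and 4.88, without overlap. How many of all genes separate the lines in this way was not counted. The RAW264.7 control arrays read 2.40, 2.95 and 2.28 and the knockdown arrays 2.94, 3.35 and 3.25, a change of 0.64 ± 0.23 (SE) in which control array 2 reached the lowest knockdown array. Inside slide 2 the change was 0.90, and without control array 2 it was 0.84. The CT-26 arrays read 4.68, 4.42 and 4.47 after control priming and 4.65, 4.84 and 4.88 after knockdown priming, a change of 0.27 ± 0.16 with overlapping groups and of 0.02 under quantile normalization. The second Hmga2 probe (119800621 to 119800680) read -0.29, -2.08 and -0.26 in RAW264.7 control and 0.97, 1.15 and 1.09 in knockdown cells, with no overlap. Its change was 1.95 ± 0.44, of which 1.35 was left without control array 2 and 1.33 inside slide 2. In CT-26 it read 0.57, 0.94 and 0.69 in control-primed and 0.42, -0.16 and 0.40 in knockdown-primed cells, a change of -0.51 ± 0.20. The probes of Hmga2 thus had the same direction in RAW264.7 and opposite ones in CT-26, and the second probe did not separate the lines.

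**Figure D2:**
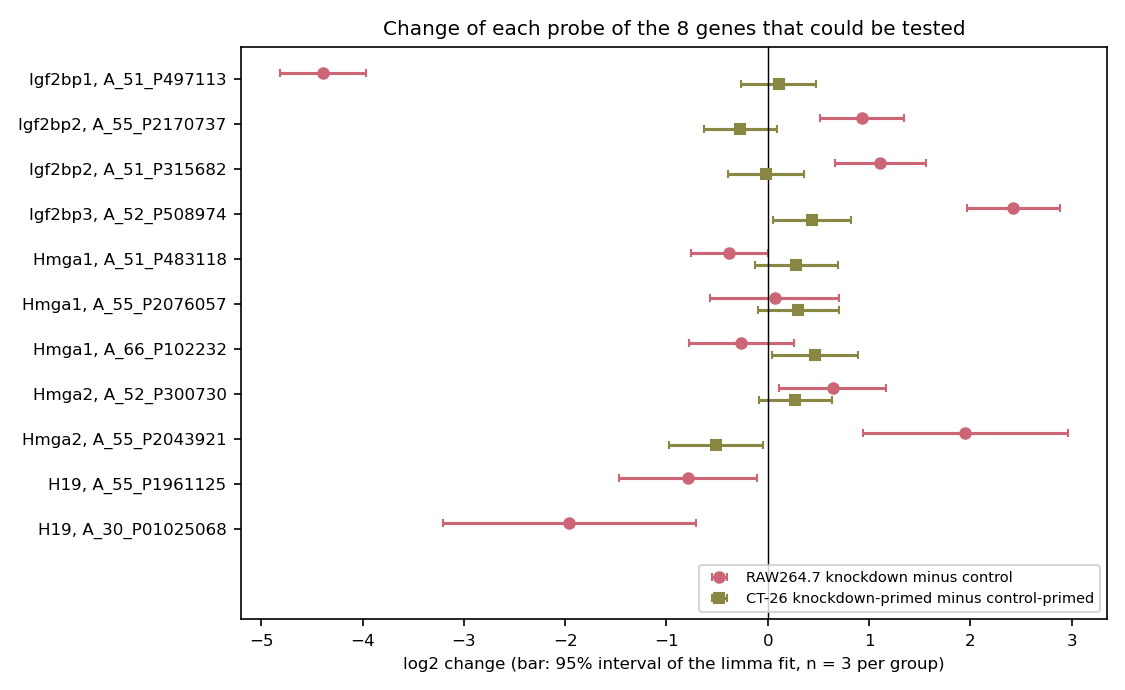
Log2 change at each probe of the 8 genes that was detected on all 3 arrays of a group, with the change on the x axis, 1 row per probe, circles for RAW264.7 knockdown minus control, squares for CT-26 knockdown-primed minus control-primed, and bars for the 95% interval of the limma fit with n = 3 per group. The RAW264.7 changes run from -4.39 at Igf2bp1 to 2.42 at Igf2bp3, and the CT-26 changes from -0.51 to 0.47.

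The let-7 antagonist Lin28b and the growth factor Igf2 were not detected at all: the Lin28b probes (chromosome 10) and the Igf2 probe (chromosome 7) were well above background on 0 of 12 arrays. Their levels ran from -9.40 to -6.75 for Lin28b and from -9.20 to -6.66 for Igf2. The lowest level that any probe had when marked well above background was -4.8 and -4.6 on RAW264.7 control arrays 1 and 2, and -6.77 to -6.32 on the other RAW264.7 arrays. It was -7.23 to -6.22 on the control-primed and -6.01 to -5.00 on the knockdown-primed CT-26 arrays. Below these levels mRNA was not detectable, and no order among the groups was read.

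H19 lay near that limit. Of its 7 probes (mm9, chromosome 7, 149761492 to 149762476, minus strand), 2, 1 and 6 were detected on RAW264.7 control arrays 1 to 3 and 2, 6 and 2 on the knockdown arrays. On the CT-26 arrays 2, 2 and 0 were detected in control-primed and 1, 0 and 0 in knockdown-primed cells. The probe that stands for the gene read -5.86, -4.76 and -5.22 in RAW264.7 control and -6.37, -5.77 and -6.06 in knockdown cells, a change of -0.79 ± 0.30 (SE) with overlapping groups and of -0.85 inside slide 2. It was detected on 1 of the 3 control and all 3 knockdown arrays. The other H19 probe that was detected on all 3 control arrays read -4.35, -3.98 and -6.36 there and -6.97, -6.48 and -7.13 in knockdown cells, where 1 array of 3 detected it. Its change of -1.96 ± 0.55 was -0.50 inside slide 2, since control array 3 read close to the knockdown arrays. The other 5 probes were detected on all 3 arrays of no group. Each had a lower RAW264.7 mean in knockdown than in control cells. The smallest fall was from -6.50 to -6.80 and the largest from -4.37 to -6.18, and these means rest partly on undetected signal.

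**Figure D3:**
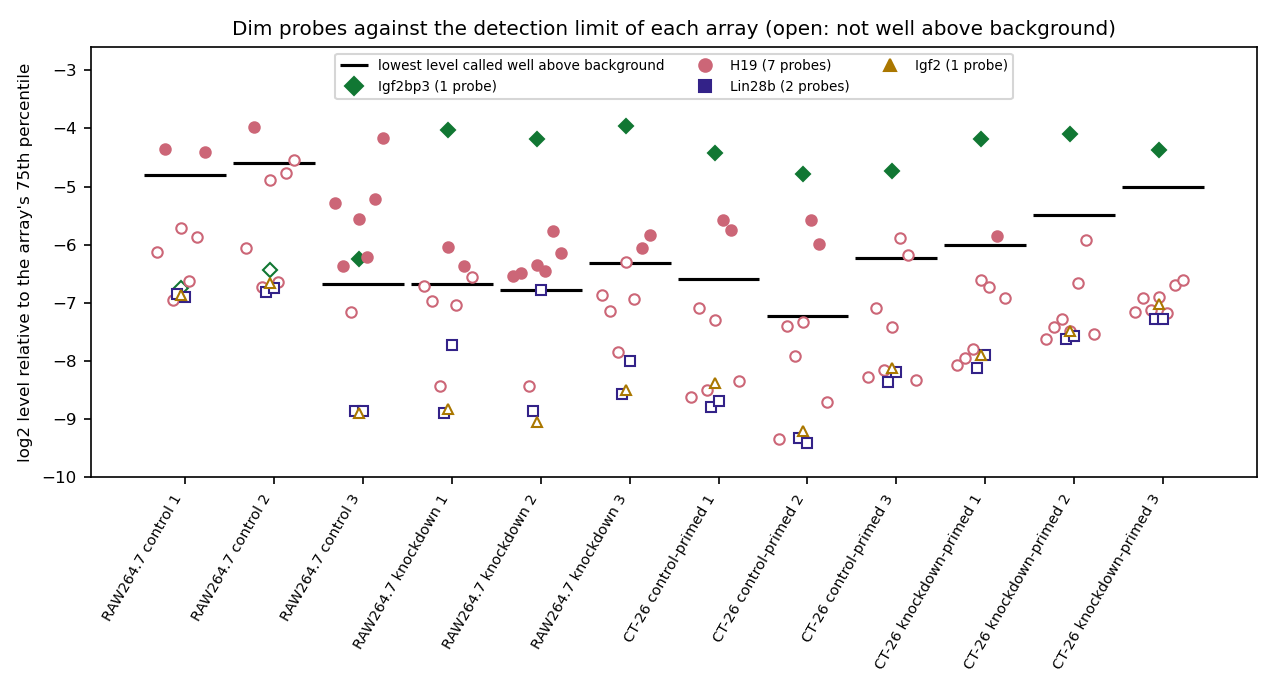
Levels of the dim genes Igf2bp3, H19, Lin28b and Igf2, 1 marker per probe, for each of the 12 arrays along the x axis, with the log2 level relative to the 75th percentile on the y axis, a black line at the lowest level marked well above background on that array, and filled markers for probes so marked. The line stands at -4.8 and -4.6 on RAW264.7 control arrays 1 and 2 and lower on the other 10 arrays, and all Lin28b and Igf2 markers are open.

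In the fit across all genes, 6 of the 8 genes could be tested in RAW264.7 and 3 passed the threshold (limma, Benjamini-Hochberg adjusted p under 0.05), Igf2bp1 lower and Igf2bp2 and Igf2bp3 higher. Of all 25459 genes tested, 22.8% passed, 14.9% lower and 7.94% higher, and the median change was -0.30. The 6 genes had a median of 0.13. In CT-26 5 could be tested and 0 passed by limma (1 had an unadjusted p under 0.05), where 6.36% of 24996 genes passed, 3.15% higher and 3.21% lower; the medians were 0.27 for the 5 genes and 0.11 for all genes. The 95% intervals of these 5 CT-26 changes, each at the brightest probe, ran from -0.62 to 0.81 at their outermost; over all their probes they ran from -0.97, at the second Hmga2 probe, to 0.89, at a Hmga1 probe. The difference between the changes, CT-26 minus RAW264.7, passed for 4 of 6 genes, where 31.4% of 27072 genes passed, 23.9% higher and 7.43% lower: Igf2bp1 at 4.50 ± 0.22, Hmga1 at 0.66 ± 0.23, Igf2bp2 at -1.20 ± 0.21 and Igf2bp3 at -1.99 ± 0.25 (SE). Nothing is read from these counts, since the genes were picked with the values known. Igf2bp2 no longer passed in RAW264.7 with the slide as a block, inside slide 2, or without knockdown array 2 or 3, and Igf2bp1 and Igf2bp3 passed in each of these. For the difference, Hmga1 passed in 3 of 19 alternatives, and not with normexp, median centring, quantile normalization, every probe fitted, the slide as a block or the replicate block. Igf2bp3 passed in 18 of 19, the exception being normexp, and Igf2bp1 and Igf2bp2 passed in all 19. The alternatives reuse the same arrays, so these tallies describe the dependence on processing and are not separate evidence. For all genes the share of higher calls in RAW264.7 moved with the scaling: 2021 higher and 3781 lower became 2398 and 1436 with each array centred on its median, 2157 and 2005 under quantile normalization, and 1741 and 5852 with the normexp correction. The median change of all genes went with it, from -0.30 to -0.08, -0.10 and -0.37, and Igf2bp1, Igf2bp2 and Igf2bp3 kept their directions under each.

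The genes whose profiles over the 12 arrays were most like these were found by the smallest root mean square difference of centred log2 levels, among 15534 named genes, for the 3 genes that were detected on all 3 arrays of a group and whose group means spanned over 1 log2 unit. For Igf2bp1 they were Hoxc4, a homeobox gene, at 0.57, and H2-M10.3, a class I histocompatibility gene, at 0.62. Hoxc4 had group means of 0.22 in RAW264.7 control, -2.66 in knockdown, 1.14 in control-primed and 1.22 in knockdown-primed cells. H2-M10.3 had a RAW264.7 knockdown mean of -8.41, below the lowest level marked well above background on those arrays, -6.77 to -6.32. Its likeness to Igf2bp1 therefore rests partly on undetected signal. For Igf2bp3 they were Ankrd52 at 0.14 and B3galnt1 at 0.23; Ankrd52 went from -2.72 to -0.01 in RAW264.7 and from -0.68 to -0.29 in CT-26. For Hmga2 they were Hace1 and Flvcr1, both at 0.14, and Hace1 went from -1.76 to -1.32 in RAW264.7 and from 0.06 to 0.25 in CT-26.

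The rest of the let-7 pathway was read from lists of related genes that leave out the 8. In the 8 such lists, 11.8% to 41.7% of the tested genes passed in RAW264.7, beside 22.8% of all genes. In RAW264.7 cells, of 14 tested genes for LIN28 function and microRNA processing, 0 rose and 2 fell, with a list median of -0.12. They were Dicer1, which cuts pre-microRNAs, and Dis3l2, the exonuclease that degrades tailed pre-let-7. Dicer1 went from -1.14 ± 0.49 to -2.40 ± 0.17 (SD, n = 3; limma adjusted p = 0.014) and Dis3l2 from 2.95 ± 0.42 to 1.68 ± 0.39 (limma adjusted p = 0.0172), and neither passed with the slide as a block or inside slide 2. In CT-26 limma passed 0 of 14 (6 had an unadjusted p under 0.05). Lin28a, the paralogue of Lin28b, was not among the genes that could be tested.

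Of 20 tested mRNAs with reported let-7 sites, 3 rose and 1 fell in the RAW264.7 knockdown, and the list median was -0.03. Fas, a death receptor, rose by 2.60 ± 0.18 (SE), from -2.72 ± 0.17 to -0.12 ± 0.14 (limma adjusted p = 5.76e-05). Myc, a growth-promoting transcription factor, rose by 2.82 ± 0.30, from -1.07 ± 0.63 to 1.75 ± 0.15 (limma adjusted p = 0.000555). Tgfbr1, a TGF-beta receptor, rose by 1.40 ± 0.27 (limma adjusted p = 0.0102). Arid3a, which fell by 0.64 ± 0.19 (limma adjusted p = 0.0462), passed in 1 of 12 alternatives and not with the slide as a block. In CT-26 1 of 21 rose: Thbs1, a matrix glycoprotein, went from -1.20 ± 0.12 to 0.67 ± 0.20 (limma adjusted p = 0.00159), and passed in all 10 alternatives.

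For mRNAs reported as clients of IGF2BP proteins, 2 of 12 rose and 3 fell in RAW264.7, and the median was -0.32. Those that rose were Myc and Ptgs2, which encodes the inducible prostaglandin synthase; Ptgs2 went from 1.52 ± 0.48 to 3.61 ± 0.23 (limma adjusted p = 0.00137). Mki67, a proliferation marker, fell by 0.85 ± 0.19 (limma adjusted p = 0.0189); Btrc and Srf fell by 0.76 ± 0.23 and 0.58 ± 0.17 (limma adjusted p = 0.0439 and 0.0457). With the slide as a block both rises passed and none of the falls did. In CT-26 limma passed 0 of 12 (2 had an unadjusted p under 0.05). Actb, the classic zipcode-bearing client of IGF2BP1, changed by -0.46 ± 0.22 in RAW264.7 (limma adjusted p = 0.142) and Cd44 by -0.12 ± 0.18 (limma adjusted p = 0.63).

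Of 17 m6A writers, erasers and other readers, Mettl14, a subunit of the methyltransferase, rose by 0.94 ± 0.17 (limma adjusted p = 0.00813) and Hnrnpc, an RNA-binding protein, fell by 0.64 ± 0.19 (limma adjusted p = 0.045) in RAW264.7. Neither passed with the slide as a block, and limma passed 0 of 17 in CT-26 (4 had an unadjusted p under 0.05). Among the other HMG family genes 0 of 10 rose and 2 fell in RAW264.7, Hmgn1 by 0.71 ± 0.20 (limma adjusted p = 0.0373) and Hmg20b by 0.56 ± 0.17 (limma adjusted p = 0.0456). Neither passed with median centring, quantile normalization or the slide as a block, the list median of -0.45 stood beside -0.30 for all genes, and limma passed 0 of 11 in CT-26 (6 had an unadjusted p under 0.05).

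Around Igf2, 1 of 11 tested IGF ligands, receptors and binding proteins rose and 1 fell in RAW264.7, and limma passed 0 of 13 in CT-26 (1 had an unadjusted p under 0.05). Igfbp6, which binds IGF2 with preference, went from -3.63 ± 0.83 in control cells, detected on 2 of 3 arrays, to -0.27 ± 0.32 in knockdown cells, a change of 3.36 ± 0.38 (limma adjusted p = 0.000811). Igfbp4 fell by 0.80 ± 0.20 (limma adjusted p = 0.0286), and this call was lost with the slide as a block. Igf1r, the receptor for IGF1 and IGF2, was detected on 0 of 6 RAW264.7 arrays and on all 6 CT-26 arrays, at 1.58 to 1.64 after control priming and 0.93 to 1.38 after knockdown priming (limma adjusted p = 0.171). Igf2r, which clears IGF2, was detected on all 12 arrays, with changes of 0.29 ± 0.18 in RAW264.7 and -0.17 ± 0.17 in CT-26 (limma adjusted p = 0.239 and 0.52).

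Of 21 other imprinted genes, 1 rose and 3 fell in RAW264.7. Mest, which encodes a hydrolase-fold protein of the fetal growth network, went from -3.57 ± 0.05 to -5.16 ± 0.12 (limma adjusted p = 0.000522) and passed in all 12 alternatives. Ppp1r9a and Peg10 fell by 0.92 ± 0.25 and 1.27 ± 0.38 (limma adjusted p = 0.0355 and 0.047); they were detected on 1 and 2 of the 3 control arrays, and neither passed with the slide as a block. Cdkn1c, a cell cycle inhibitor, rose by 0.88 ± 0.27 (limma adjusted p = 0.0471), which was also lost with the slide as a block. In CT-26 limma passed 0 of 23 (1 had an unadjusted p under 0.05). Of 7 other oncofetal genes, Tpbg, the 5T4 antigen, rose from -5.61 ± 0.89, detected on 1 of 3 control arrays, to -2.73 ± 0.55 in RAW264.7 (limma adjusted p = 0.00385), and did not pass inside slide 2, where its change was 1.92. The only fall was that of Peg10, and in CT-26 limma passed 0 of 6 (1 had an unadjusted p under 0.05). Of 10 macrophage markers tested in RAW264.7, 2 rose and 0 fell, and the list median was 0.03. They were Adgre1 and Lyz2, by 2.86 ± 0.24 and 1.88 ± 0.40 (limma adjusted p = 0.000132 and 0.0154). The Lyz2 call was lost with the slide as a block. In CT-26 1 of 7 tested markers passed, with a list median of -0.14: Cd68 fell by 0.83 ± 0.15 (limma adjusted p = 0.0209). The part of these markers in the changes above was not tested.

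**Figure D4:**
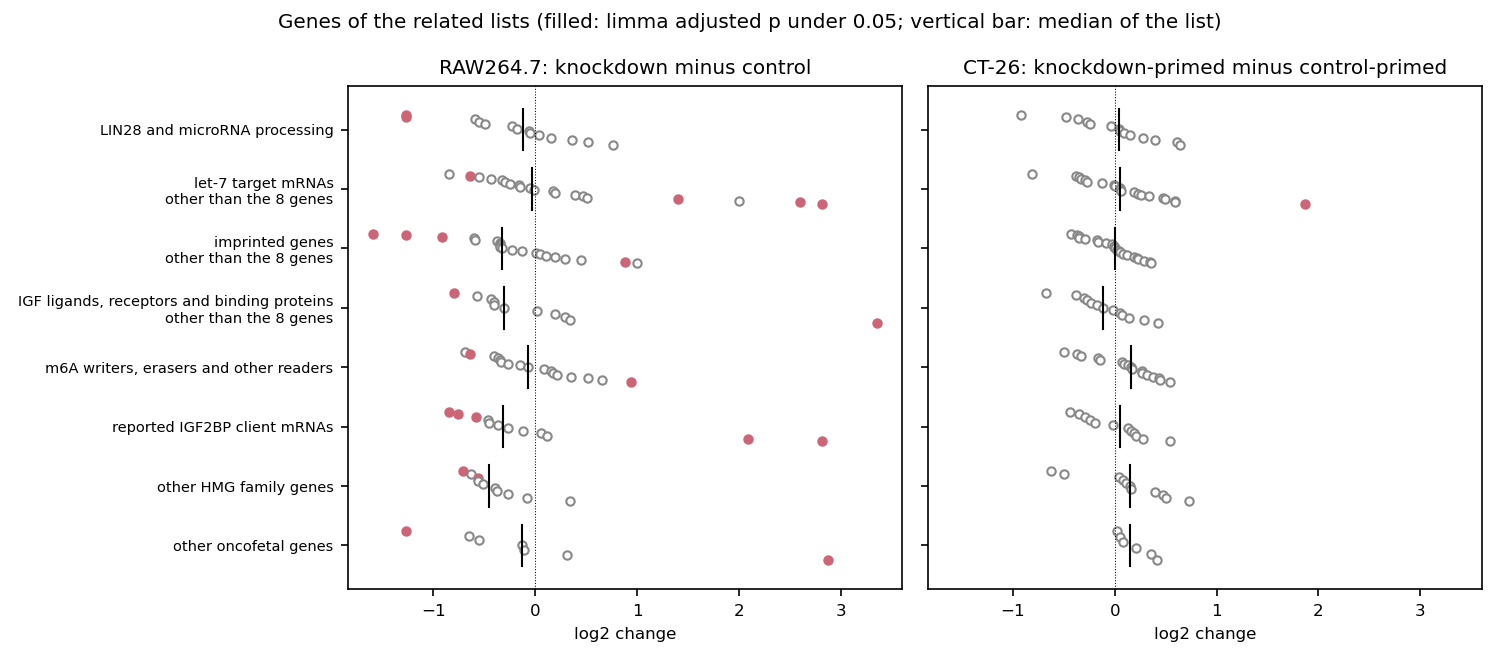
Log2 change of each tested gene in 8 lists of related genes, 1 list per row, in RAW264.7 on the left and CT-26 on the right, with filled points for limma adjusted p under 0.05 and a vertical bar at the median of the list. In RAW264.7 the filled points run from -1.59 at Mest to 3.36 at Igfbp6, and in CT-26 the 1 filled point is Thbs1 at 1.87.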

How the data were processed

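The scanner software was Agilent Feature Extraction 10.7.3.1, per the file headers and the submitters' processing notes. TRIzol was used for extraction and Cy3 as the dye, per the labels' protocols. The deposited scanner files hold each spot's intensity, as a processed signal corrected for background within the array but not scaled between arrays, and as raw mean and background signals, with flags of 0 or 1. A deposited value table holds log2 values in its 6 RAW264.7 columns, with medians of -3.81, -3.53 and -3.90 (control) and -4.02, -3.94 and -3.93 (knockdown). Each was closest to its own scanner file but not identical, with a median absolute difference of 0.125 to 0.175 from the levels used here. The 6 CT-26 columns of the table hold linear intensity as deposited, with medians of 272.6, 276.0 and 274.4 (control-primed) and 226.1, 131.7 and 174 (knockdown-primed). Of these, 1 matched its own file and 5 matched another replicate of the group, so the table was not used for any result.

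From the scanner files, log2 processed signals minus the array's 75th percentile were taken, control and outlier-flagged spots were left out, and spots of a probe were averaged. A gene took the values of its brightest probe among those detected throughout some group, and entered a comparison when that probe was detected throughout either of its groups. Names came from a RefSeq gene table (26762 probes by accession, 3819 by symbol; 25100 kept the array's name). The test was limma 3.58.1 under R 4.3.3 (lmFit, eBayes, two-sided, Benjamini-Hochberg over all genes, threshold 0.05), a check of which ran on simulated data. Values of second probes come from the same fit over all probes. Across probes, arrays within a group had correlations of 0.974 to 0.991, and the number of arrays limits the precision. Same-numbered replicates did not vary together, so the numbers were not taken as pairs.

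The members, the 10 gene lists and the tests were chosen with earlier results of these data known; 1 gene of the lists is not reported here and was left out of their counts. Named genes were all members and up to 3 called genes with the smallest p per list and cell line. The 2 most alike profiles were also named per detected member whose group means spanned over 1 log2 unit. Actb, Cd44, Igf1r, Igf2r, Arid3a, Cdkn1c, Btrc, Srf and the detection counts and levels of markers were named after their values were seen. Alternatives were the normexp correction (offset 50), median centring, quantile normalization, no filter, every probe fitted, a replicate block, the slide as a block, slide 2 alone, and each array left out.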

Additional observations from a re-analysis of the deposited data

Results flagged for a closer look

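Among the 8 genes and the up to 3 called genes with the smallest p of each related list and cell line, the change in CT-26 differed for 18 genes from that in RAW264.7 by the limma test of the difference itself (all 12 arrays, Benjamini-Hochberg adjusted p under 0.05). Of all 110 different genes tested in the 8 lists, 28 passed. The called genes were chosen by their change within a line, which is part of the difference, so passing here is not separate evidence. The difference is given here as CT-26 minus RAW264.7 on the log2 scale. The line, and with it the slide, cannot be told apart in this contrast, and 31.4% of all genes tested passed it. Among the IGF2BP and HMGA genes, picked with these values in view, it was 4.50 for Igf2bp1, -1.20 for Igf2bp2, -1.99 for Igf2bp3 and 0.66 for Hmga1. The Hmga1 call was lost in 16 of 19 alternatives.

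Among the related genes it was 1.36 for Dicer1, 1.31 for Dis3l2, 1.11 for Hmgn1, 1.19 for Hnrnpc, 1.22 for Igfbp4, 1.58 for Mest, 1.63 for Peg10 and 1.54 for Ppp1r9a, genes that fell in RAW264.7. It was -2.01 for Fas, -3.29 for Igfbp6, -0.86 for Mettl14, -2.63 for Myc, -2.10 for Ptgs2 and -2.67 for Tpbg, genes that rose there. Their limma adjusted p for the difference ran from 0.000482 for Mest to 0.0293 for Peg10. In RAW264.7 with the slide as a block, Mest was the only one of these falls that passed, and Mettl14 the only rise that did not. Ppp1r9a was detected on 1 of 3 control-primed and 0 of 3 knockdown-primed CT-26 arrays, and Peg10 on 3 and 1. Part of the difference of these genes therefore rests on undetected CT-26 signal. In RAW264.7 control cells Igf2bp3, Tpbg and Ppp1r9a were detected on 1 of 3 arrays, and Igfbp6 and Peg10 on 2 of 3. The differences of these genes rest in part on undetected RAW264.7 control signal.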

How the results depend on the processing

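The count of genes past the threshold in RAW264.7, 5802, was 3834 with median centring, 2645 with no filter on dim probes, 1166 with the slide as a block, 1867 inside slide 2, and 1692 to 7388 with 1 array left out. That in CT-26, 1590, was 41 with no filter and 94 to 3000 with 1 array left out. The difference, 8493, was 2379 with the slide as a block and 5095 to 10174 with 1 array left out. With the replicate number as a block the counts were 4811, 901 and 7448; the numbers do not pair the samples. Of the 8 genes, 5 passed in RAW264.7 with the normexp correction, H19 and Hmga2 beside the IGF2BP genes, and 2 to 4 with 1 array left out; in CT-26 0 passed in every alternative run, and 3 to 4 passed for the difference with 1 array left out. The changes of the 6 genes tested in RAW264.7 kept within the replicate spread in 56 of 72 combinations of gene and alternative, and those of the 5 tested in CT-26 in 47 of 50. The cause of these shifts was not tested. Signals near background limit Igf2bp3, H19, Lin28b and Igf2.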

Other observations

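Hmgn3, which encodes a nucleosome-binding high mobility group protein, was picked for its values. It could not be tested in RAW264.7, since it was detected on 2 of 3 control and 0 of 3 knockdown arrays, at mean levels of -4.76 and -8.69. In CT-26 it went from 0.98 ± 0.24 to 1.70 ± 0.22 (SD, n = 3, limma adjusted p = 0.0513). The fitted difference, CT-26 minus RAW264.7, was 4.66 ± 0.31 (SE), and Hmgn3 entered that fit only through its detection in CT-26. No p-value is given for the difference, since the gene was picked for its values and its RAW264.7 knockdown level has only an upper bound.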
